A study of Homo sapiens with 6 samples.

Results

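Genes that mark mast cells and basophils were followed in Kasumi-1, a human acute myeloid leukaemia cell line with the t(8;21) translocation, which joins RUNX1 to RUNX1T1. The set was a fixed list of 10 gene symbols: the granule protease genes CPA3, TPSAB1 and TPSB2, the mediator enzyme genes HDC and HPGDS, the IgE receptor genes FCER1A, MS4A2 and FCER1G, the lectin gene SIGLEC6 and the transcription factor gene MITF. Of these, 8 were among the 27576 genes of the expression table, and all 8 passed the filter for testing, which asked for 3 or more libraries at a value of 1 or above. CPA3 and MS4A2 are not analysed here.

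The IL-10 cells received recombinant human interleukin-10 at 10 ng/ml for 72 h and the control cells received 0.5% bovine serum albumin for the same time. The labels do not say whether the IL-10 cells also received the albumin. A difference between the groups could therefore not be assigned to IL-10 alone. Both groups were grown in RPMI1640 with 20% fetal bovine serum, and each group had 3 libraries made from total RNA. Nothing in the labels tells whether replicates came from separate cultures, and the spread that the p-values rest on may therefore be technical. All libraries come from 1 cell line, and in bulk RNA fewer cells that use a gene and less RNA per cell cannot be told apart. The comparison asks which transcripts differ after IL-10, an anti-inflammatory cytokine that in mice acts on mast cell growth together with other factors.

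Mast cells and basophils are blood-derived cells that carry IgE on a surface receptor and release stored granules when the IgE is cross-linked by antigen. The receptor has an alpha chain that binds IgE (FCER1A), a beta chain that amplifies the signal (MS4A2) and a gamma chain that signals (FCER1G), and the gamma chain is also used by other Fc receptors of myeloid cells. The granules hold tryptases, carboxypeptidase A3 and histamine, and stimulated cells also make prostaglandin D2 and leukotrienes. The receptor tyrosine kinase KIT and the factors GATA2 and MITF are needed for mast cell development, and t(8;21) leukaemias can arise together with mast cell disease.

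Values are normalised read counts, that is, reads divided by 1 size factor per library, given for replicates 1, 2 and 3 of each group in that order. Recovered depth was 20750115 to 24222897 reads per library. The 5 genes used to check the cell line, RUNX1T1, CD34, KIT, MPO and POU4F1, were each present in all libraries, with group means of 1408.6 to 122627 in IL-10 cells and 1340.1 to 102644 in control cells. IL-10 replicate 2 stood apart from the other libraries: the squared difference from each of them, in units of counting variance, averaged 141.3 to 235.1 over 11605 genes with a mean value of at least 50. Among the other 5 libraries it averaged 2.97 in pair 1 and 2.21 in pair 3, and 18.3 to 57.0 between libraries with different replicate numbers. A pair here is the IL-10 and the control library with the same replicate number.

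The tryptase genes could not be fully separated by sequence. TPSAB1 (ENSG00000172236, GRCh38 chr16:1240696-1242554, plus strand) encodes alpha and beta I tryptase, and TPSB2 (ENSG00000197253, chr16:1227272-1230184, minus strand) encodes beta II and III tryptase. In the principal GENCODE 29 transcripts the 825 aligned coding bases differed at 4 positions, an identity of 99.5%, with an identical run of 667 bases. Of all 100-base windows, 57.2% of those in the TPSAB1 transcript also occurred unchanged in the TPSB2 transcript and 49.2% the other way round. The TPSB2 coding sequence is 846 bases long, and its bases without a TPSAB1 partner are not among the aligned bases. The stretch below has the most differing bases of all gap-free stretches of 60 coding bases within 1 exon. It is shown because reads crossing differing bases can tell the genes apart. The 3 differing bases are in capitals, and each line is the coding strand of 1 exon, TPSAB1 at chr16:1241187-1241246 and TPSB2 at chr16:1229644-1229703.
TPSAB1: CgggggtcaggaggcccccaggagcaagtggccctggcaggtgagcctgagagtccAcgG
TPSB2: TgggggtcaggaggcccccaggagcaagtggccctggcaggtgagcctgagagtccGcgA
The split of reads between the tryptase genes is therefore uncertain, and their sum is given beside each of them.

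The order of the genes by level was clear only at its top. Per length, as RPKM (recovered reads per kilobase of exon, scaled to library depth), the means over all 6 libraries were 3.76 ± 1.05 for HPGDS, 1.44 ± 0.698 for TPSB2, 0.586 ± 0.304 for FCER1G, 0.387 ± 0.253 for TPSAB1, 0.364 ± 0.322 for SIGLEC6, 0.182 ± 0.0460 for HDC, 0.171 ± 0.0537 for MITF and 0.121 ± 0.136 for FCER1A (SD, n = 6). HPGDS lay above TPSB2 in 6 of 6 libraries, although the range of HPGDS over libraries, 2.38 to 5.004, just reached that of TPSB2, 0.721 to 2.46. Each later neighbour was the higher of its pair in only 3 or 4 of 6 libraries, so their order did not hold beyond the spread. Against all tested genes with a length, HPGDS exceeded 63.6% and TPSB2 50.4%, while FCER1A exceeded 16.6%. KIT stood at 344 on the same scale.

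**Figure D1:**
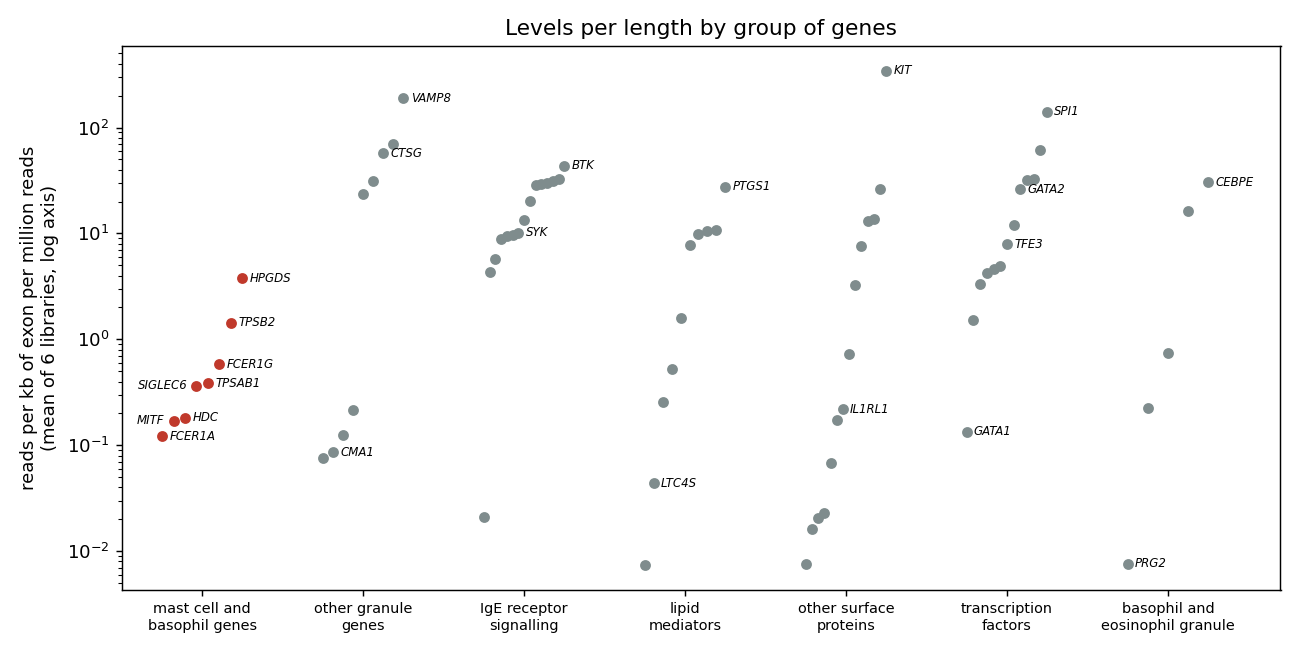
Mean level over 6 libraries in RPKM, reads per kilobase of exon scaled to library depth (log axis), for the 8 mast cell and basophil genes in red and 6 lists of related genes in grey, each point 1 gene, ordered by level within its list. The red points lie between 0.121 and 3.76, below KIT at 344, VAMP8 at 190 and SPI1 at 141.

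No difference between IL-10 and control cells was detected for any of the 8 genes. In limma on log2(value + 1), 0 of the 8 genes passed an adjusted p of 0.05 (adjusted p = 0.982 to 0.998), and 0 had an unadjusted p under 0.05. Over all 21946 genes tested, 0 passed, which is 0%, with 344 at an unadjusted p under 0.05. With edgeR and DESeq2 on the recovered reads 0 were also called, with 257 and 94 unadjusted. These unadjusted counts are smaller shares of all genes than the 0.05 expected with no difference, so the fits were conservative. The IL-10 and control values overlapped for all 8 genes, whereas they did not overlap for 5.87% of all genes tested. The median log2 fold change of the 8 genes was 0.07 and that of all genes 0.02. By pair, the median of the 8 genes was 0.16, -0.19 and 0.08 in pairs 1, 2 and 3. For genes with a mean under 50, as 6 of the 8 are, the 95% interval extended a median of 1.24 log2 units each way. For genes of higher mean it was 0.49, but these medians did not describe each of the 8 genes. The intervals of TPSAB1, TPSB2, FCER1A, FCER1G and SIGLEC6 included a 2-fold rise, although TPSB2 is of higher mean. Those of HDC, MITF and HPGDS included neither a 2-fold rise nor a 2-fold fall. All these intervals are unadjusted, whereas calls rested on adjusted p. The size of change that could have been called was not tested.

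**Figure D2:**
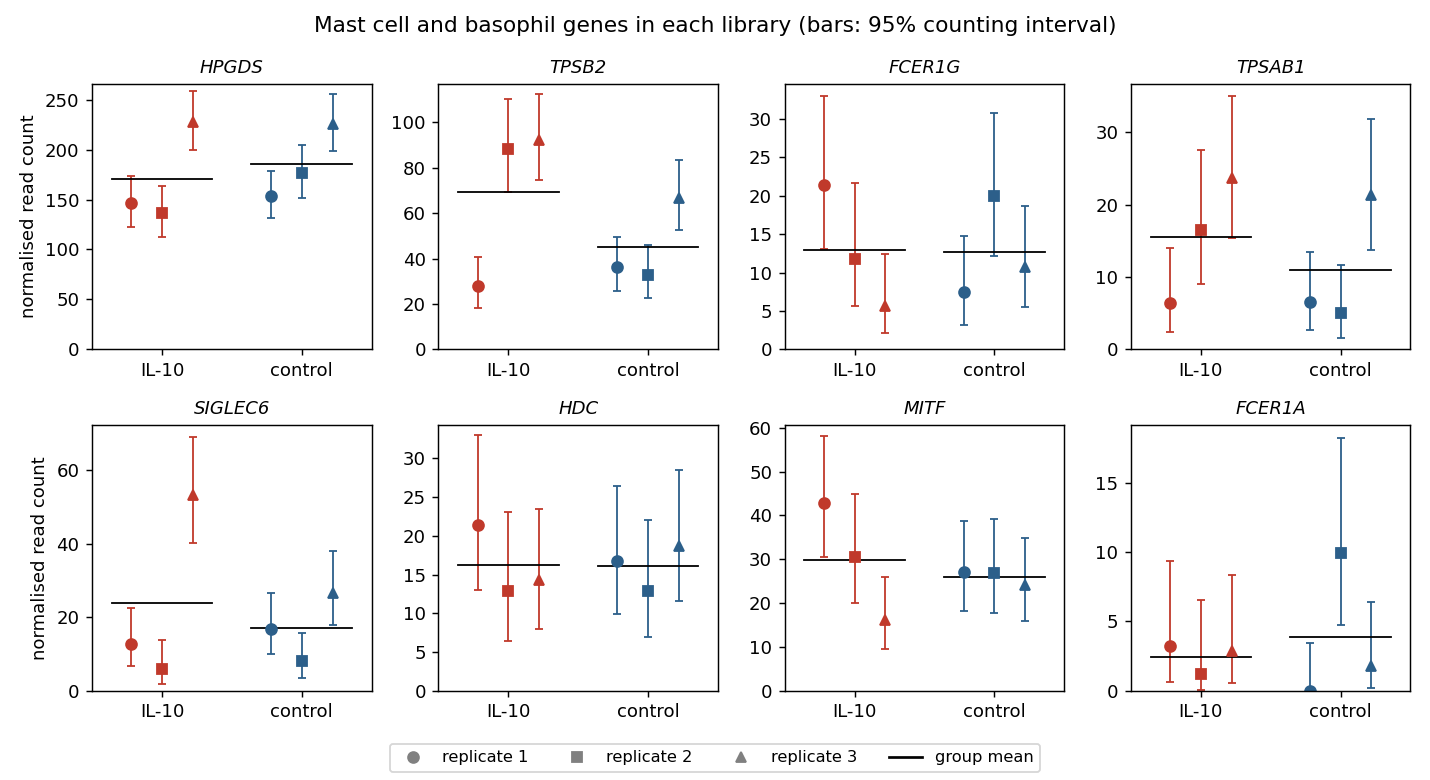
Normalised read count of each gene in the 3 IL-10 libraries (left, red) and the 3 control libraries (right, blue), with symbols for the replicate number, exact Poisson 95% counting intervals as bars and group means as lines. The triangles of replicate 3 are the highest of each group for HPGDS, TPSB2, TPSAB1 and SIGLEC6, and the groups overlap in every panel.

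Granule proteases came first by role. TPSB2 had 27.8, 88.2 and 92.1 in IL-10 cells, against 36.3, 32.8 and 66.7 in control cells. The high libraries were IL-10 replicates 2 and 3 and control replicate 3, and the lowest value of all was in IL-10 replicate 1. TPSB2 averaged 69.4 ± 36.1 in IL-10 cells and 45.3 ± 18.6 in control cells (SD, n = 3 each), a log2 fold change of 0.49 (SE 0.48, 95% interval -0.60 to 1.58, adjusted p = 0.982 in limma). TPSAB1 had 6.41, 16.5 and 23.7 in IL-10 cells, against 6.52, 4.97 and 21.4 in control cells. Both replicate 3 libraries were high, and both replicate 1 libraries and control replicate 2 were low. Its log2 fold change was 0.56 (SE 0.61, 95% interval -0.83 to 1.95, adjusted p = 0.982 in limma), from 5 to 25 reads per library.

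Summed over TPSAB1 and TPSB2, tryptase stood at 34.2, 104.6 and 115.9 in IL-10 cells, against 42.9, 37.8 and 88.1 in control cells. The mean was 84.9 ± 44.3 in IL-10 cells and 56.2 ± 27.7 in control cells (SD, n = 3 each), a difference of 28.7 (exact two-sided permutation p = 0.4, where 3 against 3 libraries cannot go below 0.1). TPSB2 took 79.5% to 84.3% of the sum in IL-10 cells and 75.8% to 86.8% in control cells. Without IL-10 replicate 2 the difference in the sum was 18.8 (exact permutation p = 0.7), and the log2 fold changes of TPSB2 and TPSAB1 were 0.23 and 0.44. In pairs 1 and 3 alone with the replicate block they were 0.04 and 0.06. The values moved the other way without IL-10 replicate 1, to a difference in the sum of 54 (exact permutation p = 0.2) and log2 fold changes of 1.05 for both TPSB2 and TPSAB1. Without control replicate 3 the difference in the sum was 44.6 (exact permutation p = 0.4), and the log2 fold changes were 0.81 for TPSB2 and 1.14 for TPSAB1. Without IL-10 replicate 3 they were 0.20 and 0.18, with a difference in the sum of 13.2 (exact permutation p = 0.7), and without control replicate 2 they were 0.30 and 0.19, with a difference of 19.4 (exact permutation p = 0.6). Without control replicate 1 the log2 fold change of TPSAB1 was 0.35.

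The tryptase transcripts are rich in GC, and GC-rich transcripts were high in IL-10 replicate 2. TPSB2 has a GC content of 65.3% and TPSAB1 of 65.1%, and IL-10 replicate 2 exceeded the mean of the other 5 libraries by 0.92 and 0.63 on the log2 scale for them. Among 11576 genes with a mean of at least 50, the median of that difference was 0.86 for the tenth with most GC and -0.71 for the tenth with least, 1158 genes each. After a correction for GC content and length, TPSB2 in pair 2 stood at 58.7 in IL-10 replicate 2 and 33.7 in control replicate 2, against deposited values of 88.2 and 32.8. In the other pairs the correction raised TPSB2, to 31.3 with IL-10 and 39.6 in control in pair 1. In pair 3 it stood at 105.5 with IL-10 and 73.3 in control. The corrected log2 fold change was 0.32 for TPSB2 and 0.39 for TPSAB1. The part of GC content in the tryptase values was not tested.

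**Figure D3:**
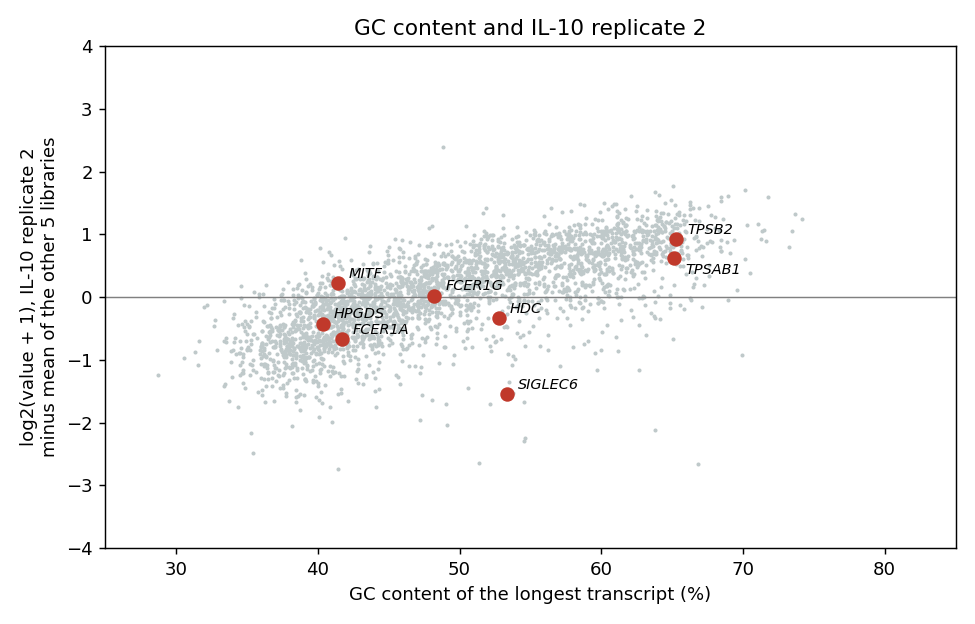
GC content of the longest transcript (x axis, %) against the log2 difference of IL-10 replicate 2 from the mean of the other 5 libraries (y axis) for 3000 genes drawn at random from those of mean at least 50 (grey) and the 8 mast cell and basophil genes (red). The grey points run upward with GC content, TPSB2 at 0.92 and TPSAB1 at 0.63 are the red points highest in GC, and SIGLEC6 is the lowest red point at -1.55.

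Of the enzymes that make mediators, HPGDS was the most abundant of the 8 genes. HPGDS (ENSG00000163106, chr4:94298535-94342876, minus strand), the haematopoietic prostaglandin D synthase, had 146.4, 136.3 and 227.9 in IL-10 cells, against 153.7, 177.0 and 226.0 in control cells. The replicate 3 libraries differed by little from each other and lay above the other 4. The mean was 170.2 ± 50.2 in IL-10 cells and 185.6 ± 36.9 in control cells (SD, n = 3 each). The log2 fold change was -0.14, with the narrowest interval of the 8 genes (95% interval -0.73 to 0.44, adjusted p = 0.982 in limma). HPGDS has a GC content of 40.3%, and its lowest value was in IL-10 replicate 2. Corrected for GC content and length, pair 2 stood at 176.4 with IL-10 and 171.9 in control. Pair 1 stood at 139.0 and 148.5, and pair 3 at 216.4 and 212.8, in the same order. The corrected log2 fold change of HPGDS was -0.01. The part of GC content in the HPGDS values was not tested. HDC (ENSG00000140287, chr15:50241947-50266026, minus strand), which encodes histidine decarboxylase, the enzyme that makes histamine, had 21.4, 12.9 and 14.2 in IL-10 cells, against 16.8, 12.9 and 18.7 in control cells. The values rest on 11 to 21 reads per library, the counting intervals of all 6 libraries overlapped, and no replicate number was high in both groups. The log2 fold change of HDC was -0.01 (95% interval -0.78 to 0.76). HDC shares its locus with the small RNA pseudogene RN7SL494P on the same strand.

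Of the IgE receptor, the binding chain was close to the detection floor. FCER1A (ENSG00000179639, chr1:159289714-159308224, plus strand) had 3, 1 and 3 reads in IL-10 cells, against 0, 10 and 2 reads in control cells, where 3 reads were taken as the floor. Only control replicate 2 lay above that floor, with a value of 9.94 and a counting interval of 4.77 to 18.3. Both replicate 2 libraries also held liver transcripts: TF stood at 85.8 in IL-10 replicate 2 and 208.8 in control replicate 2, and at 0 to 3.73 in the other 4 libraries. ALB, APOB and AFP stood at 31.7, 70.5 and 17.6 in IL-10 replicate 2 and at 112.4, 221.8 and 32.8 in control replicate 2. In the other 4 libraries these genes had at most 0.89. Over 8 liver genes the summed value was 1327 to 1680 in IL-10 cells and 1321 to 1542 in control cells, most of it SERPINA1, which myeloid cells also use, and their part in the FCER1A value was not tested. Of 7 dendritic cell markers, which mark the other main cells with FCER1A, 3 were analysed and summed to 8.23 to 16.1 in IL-10 cells and 5.97 to 13.97 in control cells. The log2 fold change of FCER1A was 0.07 (95% interval -1.83 to 1.97) in limma and -0.61 in edgeR.

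FCER1G (ENSG00000158869, chr1:161215234-161220699, plus strand), the signalling gamma chain, had 21.4, 11.8 and 5.70 in IL-10 cells, against 7.45, 19.9 and 10.7 in control cells. The libraries high in one group were not those high in the other, and the pair log2 ratios were 1.40, -0.71 and -0.80. Its log2 fold change was -0.04 (95% interval -1.23 to 1.16, adjusted p = 0.995 in limma). FCGR1A, a myeloid Fc receptor whose protein pairs with the gamma chain, stood at 904 ± 106 in IL-10 cells and 875 ± 140 in control cells. Of the 7 monocyte markers, to which FCGR1A belongs, CD14, FCGR3A, CD163 and S100A8 had at most 3.98 in any library. LYZ stood at 54.9 ± 30.9 in IL-10 cells and 49.5 ± 42.4 in control cells, and VCAN at 138 ± 77.8 and 149 ± 77.0 in that order. The sum of all 7, most of it FCGR1A, was 933 to 1237 in IL-10 cells and 901 to 1221 in control cells.

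The lectin gene SIGLEC6 (ENSG00000105492, chr19:51519525-51531856, minus strand), whose product binds sialic acid and is found on mast cells, had 12.8, 5.88 and 53.2 in IL-10 cells, against 16.8, 7.96 and 26.7 in control cells. In both groups replicate 3 was highest and replicate 2 lowest. The counting intervals of the replicate 3 libraries were 40.2 to 69.1 with IL-10 and 18.0 to 38.1 in control, and so did not overlap, while those of pairs 1 and 2 did. The log2 ratio was -0.36, -0.38 and 0.97 in pairs 1, 2 and 3, and over all libraries 0.08 (SE 0.73, 95% interval -1.57 to 1.72, adjusted p = 0.992 in limma). Without IL-10 replicate 3 the log2 fold change was -0.75, and without IL-10 replicate 2 it was 0.74. An antisense gene, AC020914.1, overlaps SIGLEC6 on the opposite strand, and the use of strand in counting is not given in the sources used here.

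MITF (ENSG00000187098, chr3:69739435-69968337, plus strand), a basic helix-loop-helix factor that activates mast cell and melanocyte genes, had 42.8, 30.6 and 16.1 in IL-10 cells, against 27.0, 26.9 and 24.0 in control cells. The control libraries lay close together and the IL-10 libraries lay on both sides of them. The mean was 29.8 ± 13.3 in IL-10 cells and 26.0 ± 1.68 in control cells (SD, n = 3 each), a log2 fold change of 0.09 (95% interval -0.75 to 0.94, adjusted p = 0.988 in limma). Of 5 melanocyte markers, which mark the other main cells with MITF, 3 were analysed, and they summed to 23.5 to 46.5 in IL-10 cells and 25.9 to 38.3 in control cells. RN7SL418P overlaps MITF on the opposite strand.

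**Figure D4:**
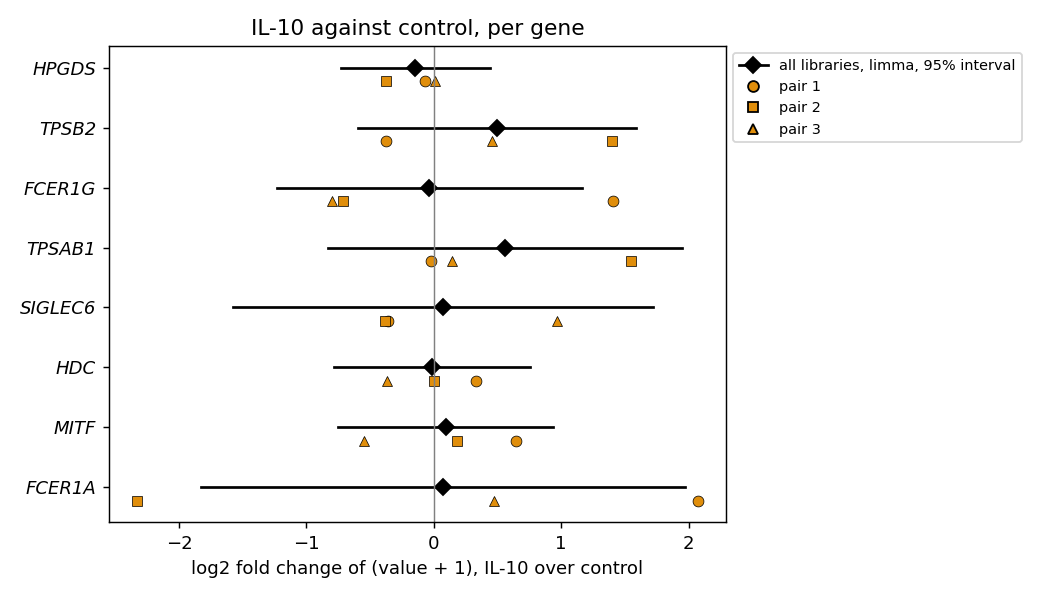
Log2 fold change of value + 1, IL-10 over control, for the 8 genes from all 6 libraries (black diamonds, with limma's 95% interval) and the ratio in each pair (orange symbols). Each interval spans 0, and each gene has pair ratios on both sides of 0, such as 1.40 in pair 2 and -0.38 in pair 1 for TPSB2.

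The libraries that share a replicate number were the 2 highest for 3 of the 8 genes, or 37.5%, close to the 40.1% of all 21946 genes tested. For HPGDS, TPSAB1 and SIGLEC6 these were the replicate 3 libraries, as for 14.5% of all genes. None of the 8 had both replicate 2 libraries highest, against 19.0% of all genes, or both replicate 1 libraries highest, against 6.63%. Averaged over both treatments, SIGLEC6 stood at 14.8, 6.92 and 39.9 for numbers 1, 2 and 3. TPSAB1 stood at 6.47, 10.7 and 22.5, and HPGDS at 150.1, 156.7 and 227.0. The 2 lowest libraries were those of replicate 3 for MITF, at 34.9, 28.7 and 20.1 for numbers 1, 2 and 3, as for 15.8% of all genes, and those of replicate 2 for HDC and SIGLEC6, as for 17.5% of all genes. Of the 62 related genes tested, 28, or 45.2%, had their 2 highest libraries under 1 number, and for 13 of them, or 20.97%, it was number 3. Examples of these 13 are SRGN, the core protein of granule proteoglycan, at 605, 302 and 985, and the inhibitory receptor gene CD300A, at 1684.6, 416 and 2612.0. What the replicate number marks is not given in the labels, and its part in these values was not tested.

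Promoter sequence was read where a window was at hand. RefSeq windows on GRCh38.p14, from 250 bases before to 50 after a gene start, matched 6 of the 8 analysed genes, and TPSAB1 and TPSB2 were not matched. The GATA motif was searched as AGATAA and TGATAA on both strands and occurred in 16.3% of 35116 such windows. It occurred in 5 of the 10 windows of the listed genes. These were the windows of HPGDS and FCER1A, 1 window of MITF at chr3:69936342-69936641, and the windows of CPA3 and MS4A2. The other MITF windows held no match. The MITF-family E-box, searched as CACGTG and CATGTG on both strands, occurred in 17.6% of all windows and in 1 of the 10 windows of these genes, that of CPA3. HPGDS and SIGLEC6 are printed because both had their 2 highest libraries in replicate 3, with GATA matches in capitals, both on the opposite strand in HPGDS. The windows are chr4:94342787-94343086, minus strand, and chr19:51531621-51531920, minus strand.
HPGDS: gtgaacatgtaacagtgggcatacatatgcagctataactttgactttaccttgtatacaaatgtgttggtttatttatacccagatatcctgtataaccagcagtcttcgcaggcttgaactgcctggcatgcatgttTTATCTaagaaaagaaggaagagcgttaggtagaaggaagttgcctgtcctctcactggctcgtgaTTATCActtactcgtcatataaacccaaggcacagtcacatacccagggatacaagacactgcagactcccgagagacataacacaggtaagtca
SIGLEC6: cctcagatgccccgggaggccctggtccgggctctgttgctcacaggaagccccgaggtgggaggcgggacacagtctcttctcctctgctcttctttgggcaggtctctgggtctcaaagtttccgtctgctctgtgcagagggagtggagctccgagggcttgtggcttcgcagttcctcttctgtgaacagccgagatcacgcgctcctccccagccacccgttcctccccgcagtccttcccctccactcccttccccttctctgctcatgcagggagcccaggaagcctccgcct
Both HPGDS matches lie upstream of its start, and the SIGLEC6 window holds none of these letters, which describes the windows only.

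Related genes were measured in 6 lists that hold 75 genes, of which 66 were analysed and 62 tested. None passed the threshold in either direction (0 of 62, smallest adjusted p = 0.982 in limma), and 0 had an unadjusted p under 0.05. The groups did not overlap for 2 of them, or 3.23%, against 5.87% of all genes. These were GAB2, an adaptor of the IgE receptor, at 3336 ± 324 in IL-10 cells and 2926 ± 147 in control cells, and ALOX5, the 5-lipoxygenase gene of leukotriene synthesis, at 18.0 ± 6.35 in IL-10 cells and 25.3 ± 1.61 in control cells (SD, n = 3 each). Their log2 fold changes were 0.19 (95% interval -0.16 to 0.53) and -0.53 (-1.32 to 0.26).

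Other granule genes fell into an abundant and a scarce set. VAMP8, a membrane fusion protein of granule release, stood at 4516 ± 827 in IL-10 cells and 4085 ± 132 in control cells. CD63, a granule membrane protein, stood at 4510 ± 1084 and 3890 ± 147 in the same order. The highest library of both was IL-10 replicate 2, at 5418 and 5756. In pairs 1, 2 and 3 the log2 ratios were 0.089, 0.36 and -0.061 for VAMP8, and 0.054, 0.505 and 0.004 for CD63. CTSG, the cathepsin G gene of mast cells and neutrophils, and CTSC, whose protease activates granule enzymes, were also abundant, at 57.0 and 31.4 RPKM. CMA1, the chymase gene, had at most 6.65 in any library and TPSD1, the delta tryptase gene, at most 3.73. The median log2 fold change of the 9 genes tested was 0.11, with 6 positive and 3 negative.

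Of 16 signalling genes below the IgE receptor, GRAP2 is not analysed here, LAT had at most 4.45 in any library and 0 in IL-10 replicate 2, and the other 14 were present in all libraries. BTK stood at 4502 ± 190 in IL-10 cells and 4502 ± 79.1 in control cells, VAV1 at 3579 ± 1263 and 2970 ± 226, LYN at 4320 ± 418 and 4112 ± 379, and SYK at 1278 ± 256 and 1127 ± 191, each in that order. Of 15 tested, 13 had a positive log2 fold change, with a median of 0.16, and the pair medians were -0.03, 0.42 and 0.01. Pair 2, which had the highest of these medians, holds IL-10 replicate 2.

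Among lipid mediator genes, PTGS1, a prostaglandin synthase that acts before HPGDS, stood at 3797 ± 288 in IL-10 cells and 3437 ± 406 in control cells. LTA4H, of leukotriene synthesis, stood at 1734 ± 454 in IL-10 cells and 1813 ± 249.1 in control cells. LTC4S, which makes leukotriene C4 in mast cells, had at most 2.14 in any library. The median over 9 genes tested was -0.15, with a pair 2 median of -0.38 and a pair 3 median of 0.05.

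Of the surface genes, KIT stood at 41172 ± 11920 in IL-10 cells and 44583 ± 8765 in control cells, and CD300A at 1583 ± 1077 and 1559 ± 1128 in that order. IL1RL1, the IL-33 receptor gene of mast cells, stood at 30.4 ± 14.4 in IL-10 cells and 27.6 ± 21.9 in control cells. MRGPRX2 is not analysed here. The median over 12 genes tested was 0.07.

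Of the transcription factors, SPI1 stood at 7689 ± 3955 in IL-10 cells and 5922 ± 458 in control cells, and STAT5A at 8734 ± 2920 and 7487 ± 389 in that order. GATA2, a driver of the mast cell and basophil lineage, stood at 3009 ± 1309 in IL-10 cells and 2403 ± 213 in control cells, where its relative GATA1 had at most 10.7 in any library. CEBPA, a factor that favours basophil over mast cell fate in mice, stood at 252 ± 119 in IL-10 cells and 156.5 ± 22.4 in control cells. For SPI1, STAT5A, GATA2 and CEBPA the highest library was IL-10 replicate 2, at 12255, 12105, 4515 and 389. The log2 ratios in pairs 1 and 3 were -0.075 and -0.059 for SPI1 and -0.041 and -0.046 for STAT5A. They were -0.052 and 0.012 for GATA2, and 0.45 and 0.257 for CEBPA. The part of GC content in these values was not tested. Per length, TFE3 and TFEC, relatives of MITF, were at 7.91 and 4.66 RPKM, above MITF at 0.171. The median over 13 genes was 0.12, with 9 positive and 4 negative, and that of pair 2 was 0.40.

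Of 10 basophil and eosinophil genes, 5 were analysed. PRG2, the major basic protein gene, had 0 reads in every IL-10 library and at most 0.93 as a value in control libraries. CEBPE, a factor of granulocyte maturation, stood at 1231 ± 490 in IL-10 cells and 957.9 ± 57.1 in control cells. Its highest library was IL-10 replicate 2, at 1789, and its log2 ratios in pairs 1, 2 and 3 were 0.029, 0.896 and -0.046. RNASE2, a granule ribonuclease, stood at 273 ± 95.5 in IL-10 cells and 277 ± 115 in control cells. CLC is not analysed here.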

How the data were processed

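Per the labels' protocols, Kasumi-1 RNA was taken with Trizol and went into Illumina TruSeq RNA libraries. The deposited table holds 1 signal value per gene and library. It is labelled as FPKM, but per the values the authors' signal is reads divided by 1 size factor per library: 100% of values came out as whole reads within 0.01 read. The submitters' processing notes name edgeR 3.18.1 and the genome builds GRCh38 and hg38. For the aligner, the annotation and any use of strand, the sources used here give nothing. Of 27576 gene IDs, 26883 were found among the gene names and 27052 in GENCODE 29, which gave positions, exon lengths and GC content.

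Genes that reached a value of 1 in 3 or more libraries were tested with limma 3.58.1 in R 4.3.3 on log2(value + 1) with an intensity trend, 4 residual degrees of freedom and Benjamini-Hochberg adjustment over all 21946 genes at 0.05. Fold changes on this scale understate changes of low genes. The recovered reads were tested with edgeR 4.0.16 and DESeq2 1.42.0 as alternatives. Scripts were tested on simulated data. Levels between genes are RPKM computed from the recovered reads and exon lengths. Exact Poisson 95% intervals and the floor of 3 reads per library cover counting error only. The summed tryptase value was compared by an exact permutation test over 20 splits.

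The labels give both groups replicate numbers 1 to 3 without saying what they mark. Deviations from the group means correlated at 0.367, 0.605 and 0.726 in pairs 1, 2 and 3 over 11605 genes. On that ground, from the data and not from the labels, same-numbered libraries were treated as pairs in the pair ratios and in the alternatives with the replicate block. The main limma fit, its intervals and adjusted p-values, and the main permutation test did not use the pairs.

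The members and all gene lists were chosen with earlier results of these data known. Named beside the members were the 2 genes of highest level per length in each list, a fixed group (CMA1, MRGPRX2, IL1RL1, KIT, GATA2, GATA1, CLC, PRG2, LYN, SYK, SPI1, CEBPA, TFE3) and genes singled out after their values were seen: SRGN, CTSG, CTSC, TPSD1, LAT, LTC4S, TFEC, GAB2, ALOX5 and the marker genes. Alternatives varied the pseudocount, filter, scaling, weights, block, GC correction, libraries and tool.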

Additional observations from a re-analysis of the deposited data

How the results depend on the processing

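None of the 8 mast cell and basophil genes passed the threshold under any alternative run, and their median log2 fold change ran from -0.08 without IL-10 replicate 1 to 0.18 without IL-10 replicate 2. With the replicate block, limma called 0 of 21946 genes (512 at an unadjusted p under 0.05), the median of the 8 genes stayed at 0.07, and the block changed no call on them. When the fit with the replicate block kept pairs 1 and 3 alone, 11 genes passed, none of them among the 8, with 1 residual degree of freedom, and the cause was not tested. The lowest adjusted p of the 8 genes over all alternatives was 0.406, for FCER1A with array weights in limma. Uncalled directions changed in 10 of 21 alternatives for FCER1G, 8 of 20 for FCER1A, 7 for HDC, 6 for SIGLEC6, 2 for MITF, and 1 each for HPGDS and TPSB2. TPSAB1 kept its direction in all 21, though its log2 fold change ran from 0.025 with array weights to 1.14 without control replicate 3. In pair 1 its ratio was -0.021. TPSB2 had a log2 fold change of 1.05 without IL-10 replicate 1 (adjusted p = 0.885 in limma) and -0.22 with array weights. The difference in summed tryptase ran from 13.2 without IL-10 replicate 3 to 54 without IL-10 replicate 1 (exact permutation p = 0.7 and 0.2), and with the block the exact permutation p within pairs was 0.5, where 0.25 is the smallest possible. A filter of at least 10 in 3 libraries left FCER1A untested. Equal library totals moved the median of all genes from 0.02 to -0.08, and that of the 8 genes to -0.01.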

Other observations

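Among markers of other cell types, which were read only to check the cell line, 2 genes singled out after their values were seen had groups that did not overlap. HBB, a haemoglobin chain gene of erythroid cells, had 9.62, 18.8 and 13.3 in IL-10 cells, against 4.66, 1.99 and 7.12 in control cells (log2 fold change 1.48, unadjusted p = 0.0134 and adjusted p = 0.982 in limma). MLANA, a melanocyte gene that MITF activates, had 7.48, 8.23 and 7.60 in IL-10 cells, against 13.0, 12.9 and 8.90 in control cells. Its log2 fold change was -0.51 (95% interval -1.31 to 0.29). PMEL, the other melanocyte marker tested, went the other way, with a log2 fold change of 0.36 (95% interval -0.685 to 1.398). The ratios of PMEL were 0.449, 0.225 and 0.396 in pairs 1, 2 and 3. Neither HBB nor MLANA passed the threshold, and groups did not overlap for 5.87% of all genes.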
